A study of Arabidopsis thaliana and Ginkgo biloba and Brassica rapa with 14 samples.

Results

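Proline tRNAs of Arabidopsis thaliana were described by their gene copies, sequences, abundance and detection. All sequences of the deposited reference list whose name begins with Pro were taken, which gave 5 of 100 consensus sequences and 68 of 687 listed genes. An isodecoder consensus is 1 sequence that stands for all listed genes of the same or nearly the same sequence. The 5 proline consensus sequences were tRNA-Pro(TGG), tRNA-Pro(AGG) and tRNA-Pro(CGG) of the nuclear genome, a tRNA-Pro(TGG) found in both the nuclear and the mitochondrial genome, called mixed-origin here, and the chloroplast tRNA-Pro(TGG).

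The study asked which cytosines of plant tRNAs carry 5-methylcytosine and whether these sites are shared among plants. Gel purified RNA of wild type A. thaliana seedlings, 10 days after germination, gave 1 RNA-seq library and 3 RNA bisulfite sequencing (RBS-seq) libraries. Wild type Brassica rapa leaf, Triticum turgidum subsp. durum flag leaf, Caulerpa taxifolia frond, Nannochloropsis oculata cells and Ginkgo biloba leaf gave 1 RNA-seq and 1 RBS-seq library each, so that the series held 14 libraries. Proline tRNA abundance was available from the A. thaliana RNA-seq library alone, so no value below has a replicate error and no test was made. The tables hold tRNAs only, and markers of the seedling tissue were not analysed here.

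Proline is encoded by the codons that begin with CC, and the anticodon of a proline tRNA ends in GG. The first anticodon base pairs with the last base of the codon, so that the TGG, AGG and CGG anticodons divide the proline codons among them. In eukaryotic tRNAs that begin the anticodon with A, this base is usually changed to inosine, which reads several codons. Plant cells translate in the cytosol, the mitochondria and the chloroplasts, and the organelle genomes carry tRNA genes of their own. A. thaliana is also known for a large insertion of mitochondrial DNA in chromosome 2.

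The 5 consensus sequences are shown because the nuclear forms differ from each other at very few bases, which bears on how reads can be told apart. They are printed as DNA from 5′ to 3′ as in the deposited list, with the anticodon in capitals. The nuclear tRNA-Leu(AAG)1 is added because its gene lies among proline genes.
Pro(TGG) nuclear: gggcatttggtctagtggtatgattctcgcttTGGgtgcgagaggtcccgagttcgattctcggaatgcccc
Pro(AGG) nuclear: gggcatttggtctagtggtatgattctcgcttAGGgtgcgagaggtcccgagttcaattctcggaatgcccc
Pro(CGG) nuclear: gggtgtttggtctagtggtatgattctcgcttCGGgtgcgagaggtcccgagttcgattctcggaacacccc
Pro(TGG) mixed-origin: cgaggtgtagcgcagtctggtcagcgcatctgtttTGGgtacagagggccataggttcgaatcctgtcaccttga
Pro(TGG) chloroplast: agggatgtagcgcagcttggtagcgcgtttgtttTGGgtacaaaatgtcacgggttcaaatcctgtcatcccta
Leu(AAG)1 nuclear: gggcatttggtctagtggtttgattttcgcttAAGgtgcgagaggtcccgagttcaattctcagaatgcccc

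The 3 nuclear proline sequences were close to each other and far from the organelle forms. Nuclear Pro(TGG) and Pro(AGG), each 72 bases long, differed at 2 positions, T33A in the anticodon and G56A, where positions are counted from 1 at the 5′ end of the printed sequence and the base of the first named sequence comes first. Their identity was 97.2%. Pro(TGG) and Pro(CGG) differed at 5 positions, C4T, A5G, T33C, T67C and G68A, an identity of 93.1%. Apart from T33C in the anticodon, these changes lay in 2 base pairs of the acceptor stem, the paired ends of the molecule. Positions 4 and 68 and positions 5 and 67 formed Watson-Crick pairs in both sequences. Pro(AGG) and Pro(CGG) differed at 6 positions.

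Bisulfite treatment turns unmethylated cytosines into bases read as thymine, and RBS-seq reads were aligned to sequences converted in the same way. With every C read as T, Pro(TGG) and Pro(CGG) were left with A5G and G68A as their only differences, since the change in the anticodon and the changes C4T and T67C disappeared. Pro(TGG) and Pro(AGG) kept both of their differences. For comparison, the median distance of a consensus sequence to its nearest neighbour in the list was 17.5 edits over all 100 sequences, and 13 edits after conversion. The nuclear proline forms were thus among the sequences with close neighbours, and reads that cover none of the differing bases match more than 1 of them.

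The organelle forms stood apart from the nuclear ones. The mixed-origin sequence of 75 bases and the chloroplast sequence of 74 bases were 76.3% identical to each other and 53.8% to 58.7% identical to the nuclear forms in global alignments. They lay 18 edits apart, and 11 edits after conversion.

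Methylation by RBS-seq needs a cytosine at the site, and positions 38, 48, 49 and 50, in the anticodon loop, the variable loop and the T stem, were read in each proline sequence by standard tRNA numbering. Other positions at which the paper reported sites were not read here. All 5 sequences had T at position 38, so that none offers a cytosine there. All 5 had C at position 48. Position 49 was C in the 3 nuclear forms and A in the mixed-origin and chloroplast forms. Position 50 was C in the nuclear and chloroplast forms and T in the mixed-origin form.

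The proline genes were concentrated on chromosome 1. It carried 38 of the 68 proline genes (55.9%), against 240 of all 687 tRNA genes (34.9%). Chromosome 2 carried 11 proline genes, chromosome 3 carried 9, chromosomes 4 and 5 carried 4 each, and the mitochondrial and chloroplast genomes 1 each. All 68 genes had the same length as their consensus.

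The isodecoders were spread differently. Nuclear Pro(TGG) had 44 genes, of which 30 lay on chromosome 1. Nuclear Pro(AGG) had 16 genes, with 8 on chromosome 1 and 4 on chromosome 3. Nuclear Pro(CGG) had 5 genes and none on chromosome 1: 2 lay on chromosome 2, 2 on chromosome 3 and 1 on chromosome 4.

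**Figure D1:**
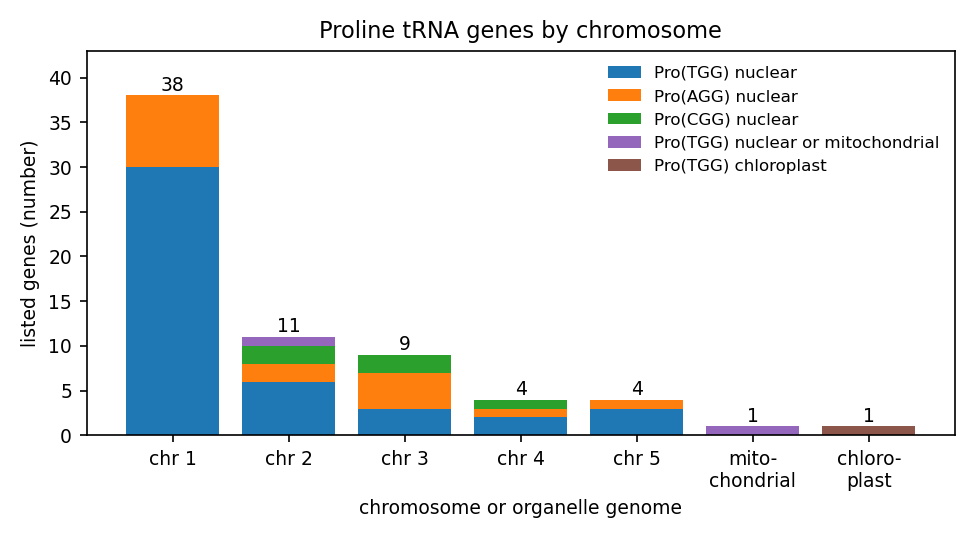
Number of listed proline tRNA genes (vertical axis) on each nuclear chromosome and organelle genome (horizontal axis), with colours for the 5 isodecoder forms and the total above each bar. Chromosome 1 holds 38 of the 68 genes, 30 of them nuclear Pro(TGG).

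Most nuclear proline genes lay in runs. A run was defined as at least 3 genes of 1 amino acid on a chromosome, each within 5000 bases of the next. By this definition 41 of 65 nuclear proline genes (63.1%) lay in 3 runs, where the background over all 612 nuclear tRNA genes was 126 genes, or 20.6%. With 1000 bases in place of 5000 the counts were 38 proline genes and 62 nuclear tRNA genes in all. Over the 547 nuclear genes of other amino acids the share was 15.5%. Runs held 35 of 44 Pro(TGG) genes (79.5%), 5 of 16 Pro(AGG) genes (31.3%) and 1 of 5 Pro(CGG) genes (20%).

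The longest run lay on chromosome 1 at chr1:10089437-10108781 (TAIR10, the build of the list). It held 26 genes in 19345 bases, from AT1G28720 to AT1G28990, of which 23 were Pro(TGG) and 3 were Pro(AGG). The gaps between its genes were 91 to 4025 bases, with a median of 389 bases, and 16 of the 25 gaps were under 500 bases. Gaps of 2706 and 4025 bases parted it into stretches of 9, 11 and 6 genes. The Pro(AGG) genes, AT1G28730, AT1G28820 and AT1G28870, were at places 2, 10 and 15. No tRNA gene of another amino acid lay inside, and the nearest ones, Ala(TGC) and Glu(CTC), were 931181 bases before and 98524 bases after it.

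The second run, at chr1:17156607-17162093, held 6 genes, all Pro(TGG), in 5487 bases from AT1G45234 to AT1G45246. It was the run that held a tRNA gene of another name. The gene AT1G45236, the single gene of Leu(AAG)1, lay at chr1:17157360-17157431, between the first and second proline genes, 681 bases after the former and 1099 bases before the latter. The Leu(AAG)1 sequence differed from Pro(AGG) at 4 of 72 positions (A20T, C26T, G34A and G63A), while the next consensus of any amino acid other than proline was 26 edits away. Of these changes, G34A lay in the anticodon, C26T left a G-T pair with position 42 in the anticodon stem, and G63A left position 63 without a Watson-Crick or G-T partner at position 49. RefSeq listed AT1G45236 as a pseudogene. Leu(AAG)1 had 0 reads in the RNA-seq library, which allows up to 1.03 RPM when 3 reads are taken as the limit for a count of 0, and up to 1.26 RPM by the exact 95% Poisson interval.

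The third run, on chromosome 2 at chr2:14350386-14356592, was the one with all 3 nuclear isodecoders. It held 9 genes in 6207 bases, from AT2G33890 to AT2G33970. There were 6 Pro(TGG) genes, 2 Pro(AGG) genes (AT2G33920 and AT2G33960) and 1 Pro(CGG) gene (AT2G33950), at the seventh place. Its gaps of 370 to 967 bases, with a median of 803, had a narrower range than those of the runs on chromosome 1.

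**Figure D2:**
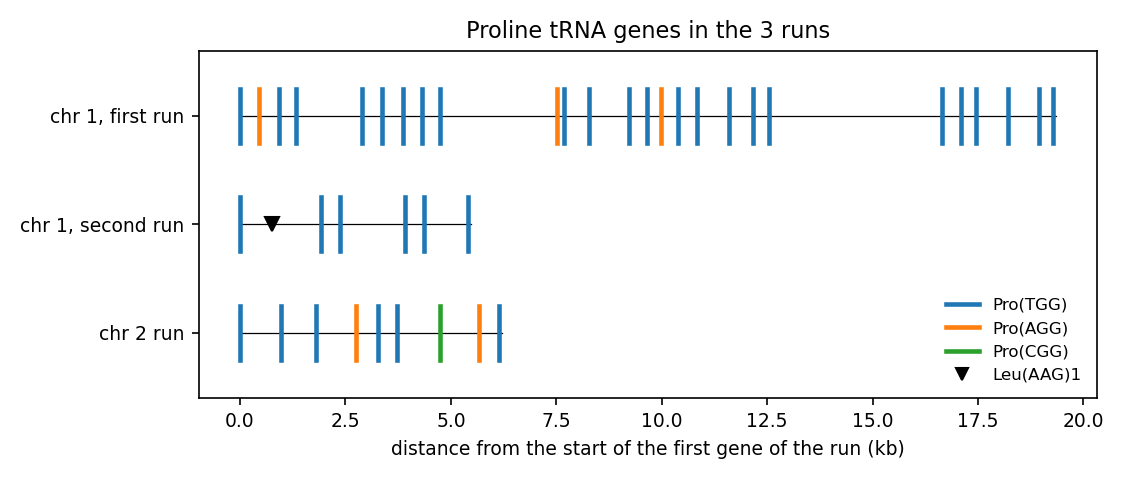
Position of each proline tRNA gene in the 3 runs as the distance in kb from the start of the first gene of its run (horizontal axis), with 1 line per run and colours for the isodecoder, and a triangle for the Leu(AAG)1 gene. The runs hold 26, 6 and 9 genes, and the second holds Pro(TGG) genes alone apart from Leu(AAG)1.

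Gene spacing differed between the runs, with median gaps of 389, 981 and 803 bases. Of the 38 gaps, 25 belonged to the first run. Over all 3 runs, 21 gaps were under 500 bases and 33 under 1000. The runs held 1.34, 1.09 and 1.45 genes per kb. Runs were seen in few families: tyrosine had 54 of 71 nuclear genes in 1 run and serine 27 of 61 in 1 run, both on chromosome 1, cysteine had 4 of 14 in 1 run on chromosome 5, and the other 16 amino acids had none.

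The remaining 24 nuclear proline genes were dispersed, 6 on chromosome 1, 1 on chromosome 2, 9 on chromosome 3 and 4 each on chromosomes 4 and 5. They were 9 Pro(TGG), 11 Pro(AGG) and 4 Pro(CGG) genes. Their distance to the nearest tRNA gene was 6305 to 332602 bases, with a median of 84106. The closest were AT3G27825 and AT3G27845, a pair of Pro(TGG) genes 6305 bases apart, and the most distant was the Pro(AGG) gene AT1G70050. On chromosome 1, 5 of the 6 dispersed genes were Pro(AGG) (AT1G08950, AT1G10440, AT1G59880, AT1G68770 and AT1G70050), the other being the Pro(TGG) gene AT1G20420.

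Many proline genes lay within the span of another annotated gene in RefSeq, which lists 66 of the 68 loci, all as proline tRNA genes. Of the 65 nuclear genes, 21 (32.3%) overlapped the span of a protein-coding gene, where the background was 9.59% of 605 nuclear tRNA genes. Over the 540 genes of other amino acids it was 37 genes, or 6.85%. Spans take in introns and untranslated regions, and strand was not used. All 9 genes of the chromosome 2 run lay in the span of AT2G33980 (NUDT22, named as a nudix hydrolase). Without that run 12 of 56 proline genes (21.4%) overlapped a protein-coding gene.

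In the second run, 3 genes lay in the span of AT1G45229. In the first run, 3 genes lay in AT1G28765, AT1G28720 lay in AT1G28710, and 11 genes lay in the span of the long non-coding RNA AT1G28715. Outside the runs 5 proline genes overlapped a protein-coding gene: AT1G68770 in AT1G68760 (NUDX1), AT5G46105 in AT5G46110 (APE2), AT5G39535 in AT5G39530, and AT3G01705 and AT3G05755 in part. After their overlaps were seen, the names NUDT22, NUDX1 and, for the next protein-coding gene after the first run, NUDX15 were found to belong to nudix hydrolases. The other overlapped protein-coding genes had no such symbol in RefSeq, and NUDX15 overlapped no proline gene. The share of nudix genes near other tRNA genes was not tested.

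The mixed-origin Pro(TGG) had 1 gene in the mitochondrial genome, ATMG00350 at M:104457-104531, and 1 on chromosome 2, AT2G07762 at chr2:3495012-3495086. The same consensus stood for both, and reads cannot be told apart between them. The order of tRNA genes around both copies was the same. From the start of Pro(TGG), the mitochondrial starts lay at -630 bases for Ser(GCT), -236 for Tyr(GTA)1, 428 for Cys(GCA), 1430 for Asn(GTT) and 2340 for Tyr(GTA)2. On chromosome 2 they lay at -630, -236, 430, 1428 and 2346 bases, so that the starts differed by at most 6 bases. The listed lengths were not all the same, as for Cys(GCA), listed at M:104885-104995 and chr2:3495442-3495512. The first of these genes carried another sequence name on chromosome 2, Ser(GCT)1. Its listed span was also shorter there, chr2:3494382-3494419 against M:103827-103914 for the mitochondrial Ser(GCT).

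**Figure D3:**
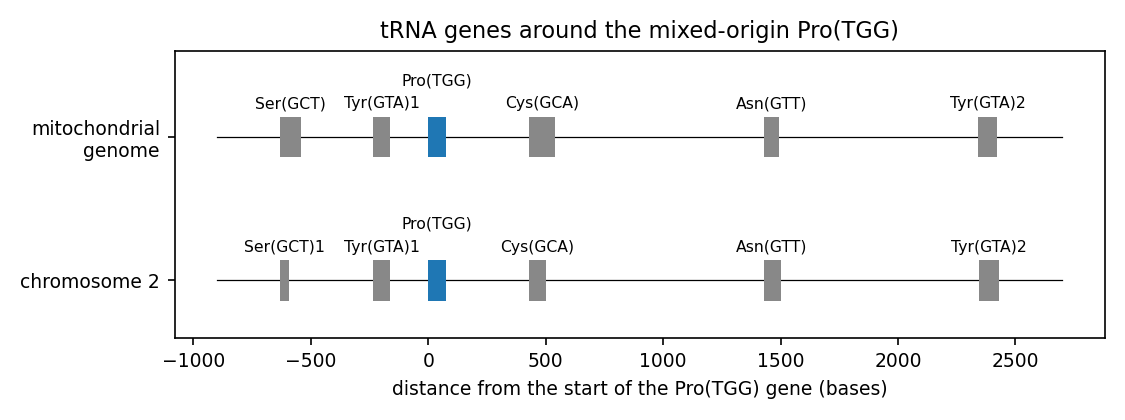
tRNA genes around the mixed-origin Pro(TGG) in the mitochondrial genome (upper line) and on chromosome 2 (lower line), by distance in bases from the start of the Pro(TGG) gene (horizontal axis); each box spans a listed gene. The 6 genes have the same order, and their starts differ by 0 to 6 bases.

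The chromosome 2 copy was part of a wider group. Between positions 3239657 and 3503608 of chromosome 2 lay 23 tRNA genes, of which 17 had a sequence shared with an organelle genome. Of the 20 mitochondrial tRNA genes, 16 had a sequence shared with another genome. The neighbours differed widely in RPM: the mitochondrial Ser(GCT) had 7281 RPM, Tyr(GTA)2 had 305, Cys(GCA) had 163, Asn(GTT) had 25.0 and Tyr(GTA)1 had 1.71. Ser(GCT)1, the name of the chromosome 2 copy alone, also had 0 reads, with the same limits as Leu(AAG)1.

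The chloroplast Pro(TGG) had 1 gene, ATCG00620 at C:66490-66563. The Trp(CCA) gene ATCG00610 ended 187 bases before it. On the other side the next listed tRNA gene, Ile(CAT)1, was 19748 bases away. Unlike the mixed-origin form it had no listed copy in the nuclear genome.

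Abundance was given as RPM, the reads of a sequence scaled to a common library size, and the chloroplast and mixed-origin forms far exceeded the nuclear ones in RPM. How RPM relates to tRNA level in the cell was not tested. The 33 nuclear alanine genes had 0 reads in this library, and the 71 nuclear tyrosine genes had 6. The steps of the RPM values gave whole reads: with a total of 2923785 reads, all 87 values above 0 fell within 0.005 RPM of a whole number of reads, and 1 read was worth 0.342 RPM. All 5 proline sequences had at least 5 reads, as did 70.0% of all sequences. The ranges given in parentheses are exact 95% intervals, Poisson for levels and binomial for shares. They include the error of counting reads and nothing else. PCR copies are not independent molecules, so that the error of counting molecules can be larger.

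The chloroplast Pro(TGG) had 809 RPM (777 to 843, 2366 reads) and ranked 13 of 100 sequences. The mixed-origin Pro(TGG) had 1228 reads and ranked 16. Among the 11 sequences shared by the nuclear and mitochondrial genomes it had the highest RPM, where the median was 2.05 RPM. The chloroplast form ranked 9 of 24 chloroplast sequences, where the median was 77.6 RPM.

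The nuclear forms had few reads. Pro(AGG) had 16.4 RPM (12.1 to 21.8, 48 reads), Pro(TGG) had 11.6 RPM (8.05 to 16.3, 34 reads) and Pro(CGG) had 3.08 RPM (1.41 to 5.84, 9 reads). They ranked 7, 10 and 24 of 58 nuclear sequences, where the median was 2.39 RPM. All of them lay above that median, though the interval of Pro(CGG) took it in. The intervals of Pro(AGG) and Pro(TGG) overlapped.

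Of the 3685 proline reads, 64.2% (62.6 to 65.8) were of the chloroplast form and 33.3% (31.8 to 34.9) of the mixed-origin form. The nuclear Pro(AGG), Pro(TGG) and Pro(CGG) made up 1.30%, 0.923% and 0.244%. The 3 forms with 65 of the 68 genes therefore held 91 reads. A low nuclear share was not particular to proline. Over all tRNAs, the 58 nuclear sequences with 612 of the 687 genes held 3743 of 579400 tRNA reads. The chloroplast form had 26.0 times (21.1 to 32.4) the RPM of the 3 nuclear forms together, and the mixed-origin form 13.5 times (10.9 to 16.9). Per base these ratios were 25.3 and 13.0, as the sequences are of nearly the same length. The chloroplast form had 1.93 times (1.80 to 2.07) the RPM of the mixed-origin form.

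Per listed gene, the order of the nuclear forms turned on their copy number. Pro(AGG) had 1.03 RPM per gene (0.757 to 1.36), Pro(CGG) 0.616 (0.282 to 1.17) and Pro(TGG) 0.264 (0.183 to 0.369). Pro(AGG) had 3.88 times (2.45 to 6.21) the RPM per gene of Pro(TGG), an interval that does not take in 1, whereas the ratio of their RPM was 1.41 (0.891 to 2.26). Pro(CGG) had 2.33 times (0.983 to 4.96) the RPM per gene of Pro(TGG), and Pro(AGG) 1.67 times (0.809 to 3.86) that of Pro(CGG), and neither pair was told apart at this depth. The Pro(TGG) value lay near the median of 0.289 RPM per gene over nuclear sequences. How reads that match both Pro(TGG) and Pro(AGG) were placed is not given in the sources used here, and the part of this in the ratio was not tested.

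**Figure D4:**
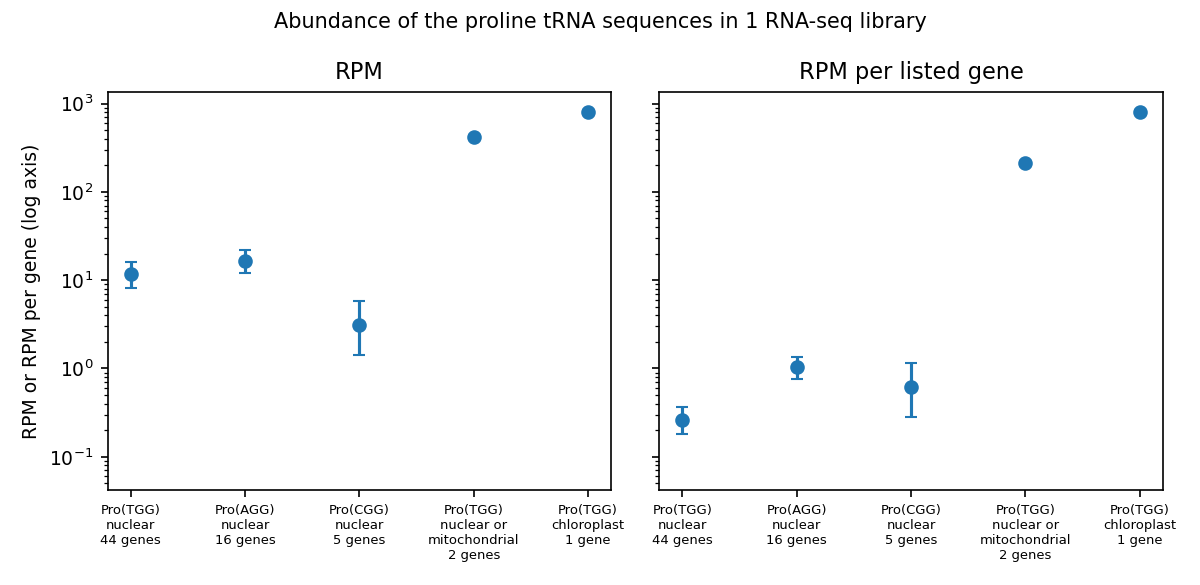
RPM (left) and RPM per listed gene (right) of the 5 proline tRNA sequences in the 1 RNA-seq library, on a log axis, with exact 95% Poisson intervals as bars, which are smaller than the points for the organelle forms. The chloroplast and mixed-origin forms (809 and 420 RPM) lie above the nuclear forms (3.08 to 16.4 RPM) in both panels, and per gene Pro(TGG) is the lowest.

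Among the 91 nuclear proline reads, Pro(AGG) made up 52.7% (42.0 to 63.3) with 24.6% of the genes. Pro(TGG) made up 37.4% (27.4 to 48.1) with 67.7% of the genes. Pro(CGG) made up 9.89% (4.62 to 17.9) with 7.69% of the genes. The share of reads thus lay above the share of genes for Pro(AGG) and below it for Pro(TGG), beyond the counting intervals, and for Pro(CGG) the interval took in the share of genes. Counting only the genes outside runs, a divisor chosen after the data were seen, Pro(TGG) had 1.29 RPM per gene and Pro(AGG) 1.49, a ratio of 1.16 (0.729 to 1.85). RNA-seq reads cannot be assigned to single genes of a consensus, so which of the genes gave the reads was not tested.

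The mixed-origin form had 210 RPM per gene (198 to 222) over both genes. Per gene it stood at 439 times (354 to 549) the pooled nuclear forms, and the chloroplast form, with its single gene, at 1690 times (1371 to 2107). These ratios count genes in the list and take no account of how many copies of an organelle genome a cell holds. In RNA of whole seedlings, the number of genome copies and the RNA made per copy cannot be told apart, nor can the number of cells and the RNA per cell.

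As a family, nuclear proline tRNAs had many genes and a moderate number of reads. They ranked 2 of 20 amino acids by nuclear genes (65), behind tyrosine (71) and ahead of serine (61). By summed nuclear RPM they ranked 4 with 31.1 RPM (25.1 to 38.2), after glutamate (906), glycine (165) and aspartate (47.2) and before histidine (26.3). Per gene they ranked 8, with 0.479 RPM per gene (0.386 to 0.588), where all 58 nuclear sequences together had 2.09. Nuclear proline tRNAs made up 2.43% (1.96 to 2.98) of nuclear tRNA RPM with 10.6% of nuclear genes. Both comparisons were shaped by glutamate, which with 24 genes had 906 of the 1280 RPM of the 58 nuclear sequences. The median over nuclear sequences was 0.289 RPM per gene, below the proline value. Over all origins proline made up 0.636% of tRNA RPM with 9.90% of genes.

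The other sequences of high gene number had less RPM. Nuclear Tyr(GTA), with 70 genes, had 1 read (0.34 RPM), or 0.00486 RPM per gene. Nuclear Ser(AGA), with 37 genes, had 7 reads (2.39 RPM), or 0.0646 RPM per gene. The nuclear sequence of highest RPM, Glu(CTC), had 627 RPM from 13 genes, or 48.2 RPM per gene. Gene number and RPM thus ranked the families differently, with proline among the first 4 in both.

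**Figure D5:**
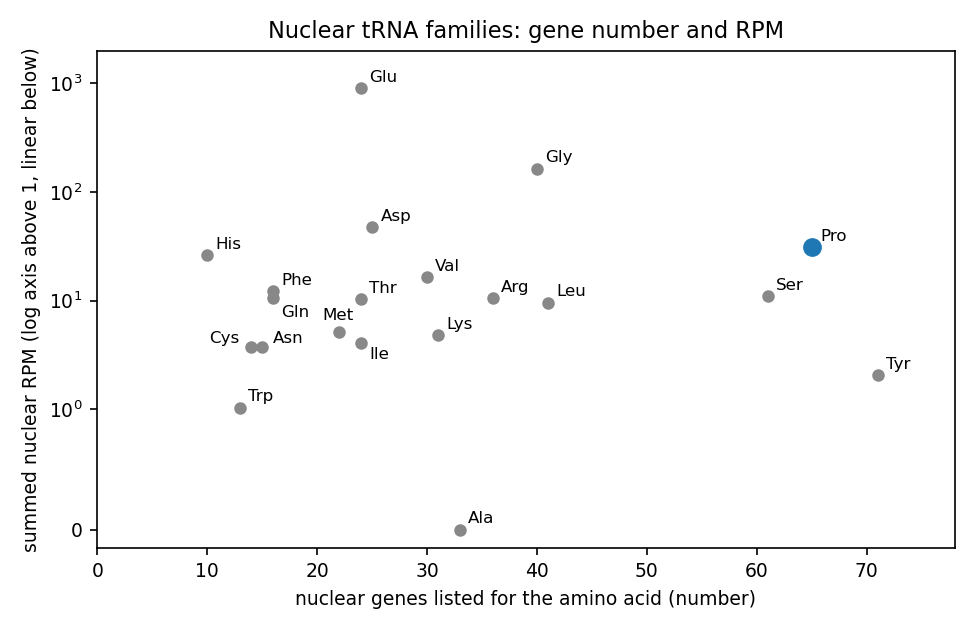
Summed nuclear RPM of each amino acid in the 1 RNA-seq library (vertical axis, log above 1 and linear below) against the number of its nuclear genes in the list (horizontal axis), 1 point per amino acid, with proline in blue. Proline (65 genes, 31.1 RPM) lies between tyrosine and serine in gene number and above both in RPM, and glutamate has the highest RPM (906).

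Detection by RBS-seq was taken as yes or no per sequence and species from the list of detected sequences. In A. thaliana 1 of 5 proline sequences was listed as detected, the chloroplast Pro(TGG), against a background of 56.0% of all 100 sequences. None of the 3 nuclear proline sequences was listed, against a background of 53.4% of the 58 nuclear sequences. No proline sequence was listed in any other species, where the sequences listed numbered 48 in B. rapa, 51 in T. durum, 30 in C. taxifolia, 35 in N. oculata and 34 in G. biloba. Reads of these species were aligned to the A. thaliana list and to tRNA sequences of a close relative, and the latter sequences were not analysed here.

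Sequences of lower RPM than the undetected proline forms were among those detected. The mixed-origin Pro(TGG), at 420 RPM (397 to 444), was the most abundant sequence that was not detected, and all 15 sequences of higher RPM were detected. Among undetected nuclear sequences Pro(AGG) ranked first and Pro(TGG) ranked 3. Of the 31 detected nuclear sequences, 25 had an RPM at or below that of Pro(AGG), and the lowest RPM among the 31 was 0. Pro(AGG) ranked 7 of the 58 nuclear sequences, so that most of them lay at or below it. All 27 undetected nuclear sequences did so, and every nuclear sequence above it was detected. Nuclear sequences of low RPM were thus found among both the detected and the undetected ones, and how closely detection goes with RPM was not tested. Below the chloroplast Pro(TGG) in RPM, 8 of 15 chloroplast sequences were detected, and above it all of them were. Depth of the RBS-seq libraries over these sequences was not analysed here, and its part in the calls was not tested.

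No proline row was present among the 59 sites of the methylation table, so that no methylation level can be given for a proline tRNA, at C48 or elsewhere. This holds for the chloroplast Pro(TGG) too, which was detected and has a C at positions 48 and 50. The paper divided the detected A. thaliana tRNAs into methylated and non-methylated ones and reported sites on nuclear-encoded tRNAs only. The chloroplast Pro(TGG) thus belongs with those it called non-methylated, by its limits of coverage and methylation level. Of 20 amino acids, 15 had a listed site, and asparagine, phenylalanine, tryptophan and tyrosine were the others without one. Asparagine, methionine, phenylalanine and tryptophan shared with proline the lack of a detected nuclear sequence. By the methods of the study a site was called from a minimum coverage and a minimum methylation level, so that a detected sequence can lack a row because its cytosines lay below that level. A missing row is not a methylation level of 0.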

How the data were processed

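The reference list was made by the authors by joining identical and highly similar tRNA genes, and it was deposited with sequences, gene identifiers and positions in TAIR10. The authors trimmed and filtered the reads and aligned them in CLC Genomics Workbench (version not given in the sources used here), and deposited abundance as RPM rounded to 2 decimals. The deposited methylation table was used for its sequence names alone, and detection came from the list of detected sequences that accompanies the paper.

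Runs, distances, edits and counts were computed in Python 3.11.15 with NumPy 2.4.6, SciPy 1.17.1 and Biopython 1.88 (global alignment with match 1, mismatch -1, gap opening -2 and extension -1), and drawn with Matplotlib 3.10.9. Reads were recovered as the 1 whole number between 2898551 and 2985074 that turns every RPM value into whole reads. In all, 579400 reads were tRNA reads. No count model was run, since 1 library allows none. RefSeq (TAIR10.1) served for names and neighbours only, with the same positions as the list for 66 proline genes, and ATMG00350 and ATCG00620 were not matched. Every proline isodecoder, its runs and its dispersed genes were named by rule, with Tyr(GTA), Ser(AGA) and the nuclear sequence of highest RPM for comparison; the neighbours of the organelle forms and Leu(AAG)1 were named after their values were seen. Members, lists and rules were chosen with earlier results of these data known. The functions were tested on simulated data. Alternatives were other run distances and sizes, divisors, pseudocounts, groupings of origins, a read minimum for detection and converted sequences.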

Additional observations from a re-analysis of the deposited data

How the results depend on the processing

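Of 42 alternatives, 29 kept the value and 13 moved it, 39 were planned and 3, the divisors of genes outside runs, were chosen after seeing the data. Kept means within 1.5 times for a count, inside the 95% counting interval for a level, share or ratio, and equal for a rank. Some of the kept alternatives could not move a proline value. Taking only genes annotated as tRNA genes in RefSeq removed no nuclear proline gene. Taking only sequences of 5 or more reads removed no proline sequence, so the ratios stayed the same. Proline genes in runs stayed at 38 to 41 under every run distance and size tried, but at 1000 bases the count over all nuclear genes was 62. With the nuclear forms pooled, Pro(TGG) and Pro(AGG) both became 0.479 RPM per gene, and with genes outside runs as divisor they became 1.29 and 1.49. The mixed-origin form had 420 RPM per gene if its mitochondrial gene alone was counted. The proline share was 3.23% of nuclear and ambiguous RPM and 0.636% of all tRNA RPM. Proline ranked 8 by RPM per gene, 6 by the median of its sequences and 5 with ambiguous sequences counted as nuclear. By at least 5 RNA-seq reads, 5 of 5 proline sequences were detected, against 1 by RBS-seq. Pro(TGG) and Pro(CGG) kept 2 differences after conversion. No paired analysis was possible because only the A. thaliana RBS-seq libraries carry replicate numbers, and no proline value is given per replicate. Leaving out a replicate was not possible with 1 library. Counting error limits the nuclear forms most, with 91 reads, and the spread between seedlings is unknown.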
